A study of Mus musculus with 6 samples.

Results

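The conjugation genes of mouse liver were described here: the UDP-glucuronosyltransferases (Ugt), the cytosolic sulfotransferases (Sult) and the 4 genes that make their activated cosubstrates (Papss1, Papss2, Ugdh and Ugp2). Members were chosen by gene symbol, with at least 1 count in any sample. Of 46 genes that the symbols cover, 6 were at 0 in all samples (Sult1c1, Sult2a4, Sult2a6, Sult6b2, Ugt2a1 and Ugt2a2), which left 40 members of the 49671 genes listed. RNA-seq counts came from the livers of 6 male C57BL/6J mice, 3 of each genotype, that were on the AMLN diet (high in fat, fructose and cholesterol) for 18 weeks from 4 weeks of age. The samples labelled WT are SHMT2 fl/fl mice by the study's methods, with loxP sites around exons 3 to 12 of Shmt2 and no Cre, and those labelled KO are SHMT2 HKO mice, which carry the same floxed allele together with Albumin-Cre. The Albumin promoter that drives this Cre is active in hepatocytes, and whole liver, with its other cell types, was sequenced. All 6 mice shared the floxed allele, the sex and the diet. Each label stood for 1 liver sample, and the labels do not say whether the mice were littermates.

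Glucuronidation and sulfation are the main conjugation reactions of the liver. Ugp2 makes UDP-glucose, Ugdh oxidizes it to UDP-glucuronic acid, and UGT enzymes of the endoplasmic reticulum move the glucuronic acid onto bilirubin, steroids, bile acids and drugs. Papss1 and Papss2 make the sulfate donor PAPS, and SULT enzymes of the cytosol use it to sulfate phenols, catecholamines, thyroid and steroid hormones and bile acids. The conjugates are more soluble in water and leave through transporters into bile or blood.

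Shmt2 itself, the mitochondrial serine hydroxymethyltransferase that was targeted, was measured at 94.6, 109 and 93.9 CPM (counts scaled to the TMM-corrected library size) in SHMT2 fl/fl mice 1, 2 and 3, and at 24.9, 28.3 and 19.3 CPM in SHMT2 HKO mice 1, 2 and 3. Every SHMT2 HKO value was below every SHMT2 fl/fl value, and the fitted log2 fold change was -2.04 (SE 0.16, adjusted p = 0.000639 by edgeR). The exact two-sided permutation test gave p = 0.1, the smallest that 3 against 3 samples allow. All values below are listed in the order of mice 1, 2 and 3, every log2 fold change is SHMT2 HKO against SHMT2 fl/fl, and every adjusted p comes from edgeR (quasi-likelihood), adjusted by Benjamini-Hochberg across the 16089 genes tested. The libraries held 23090837 to 34089722 counts on genes, so that 3 counts, taken as the floor, were worth 0.0734 to 0.152 CPM. The hepatocyte markers were abundant in all 6 livers, with summed levels of 52671 to 63986 CPM in SHMT2 fl/fl and 68340 to 109135 CPM in SHMT2 HKO mice.

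With TMM scaling, conjugation genes were mostly higher in SHMT2 HKO livers. Of the 31 members that passed the filter on low counts, 18 were higher (58.1%), 1 was lower (3.23%) and 12 were not called at an adjusted p of 0.05. Sult2a7, among the 18, and Sult2b1, the 1 lower, passed the filter through 1 group alone, so they had to differ. Of all genes tested, 12.5% were higher and 16.5% were lower (15.8% and 17.9% by DESeq2, 12.4% and 17.4% by limma-voom). The shares of all genes at an unadjusted p of 0.05, a level used for some lists below, are not given here. The median log2 fold change of the tested members was 0.77, against 0.03 over all genes tested. Every SHMT2 HKO mouse was above every SHMT2 fl/fl mouse for 17 members, where 21.9% of all genes tested had that pattern, and the reverse held for 3 members, where 25% of all genes did. The other 9 members did not pass the filter and were not tested, namely Ugt1a2, Ugt1a8, Ugt1a10, Sult2a1, Sult2a3, Sult2a5, Sult3a1, Sult3a2 and Sult6b1.

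These calls, and those of the other lists below, depend on how the libraries are put on one scale. The TMM factors were 1.13 to 1.21 in SHMT2 fl/fl and 0.802 to 0.984 in SHMT2 HKO libraries, and the ERCC spike-in RNAs took 1.42% to 1.84% and 1.35% to 2.75% of the counts. Scaling to the ERCC RNAs lowered the median of all genes by 0.72, to -0.69, and left 4 members called higher (Sult2a8, Sult2a7, Sult5a1 and Ugt1a5) and 1 lower (Sult2b1). Of these, Sult2a7 and Sult2b1 are the members that passed the filter through 1 group alone. Library size without TMM lowered the median of all genes by 0.42 and left 9 members higher and 3 lower. Of all calls, 43.1% were higher with TMM, 9.87% without it and 3.73% with ERCC scaling. Whole liver was measured, so fewer cells of a type and less RNA per cell cannot be told apart.

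**Figure D1:**
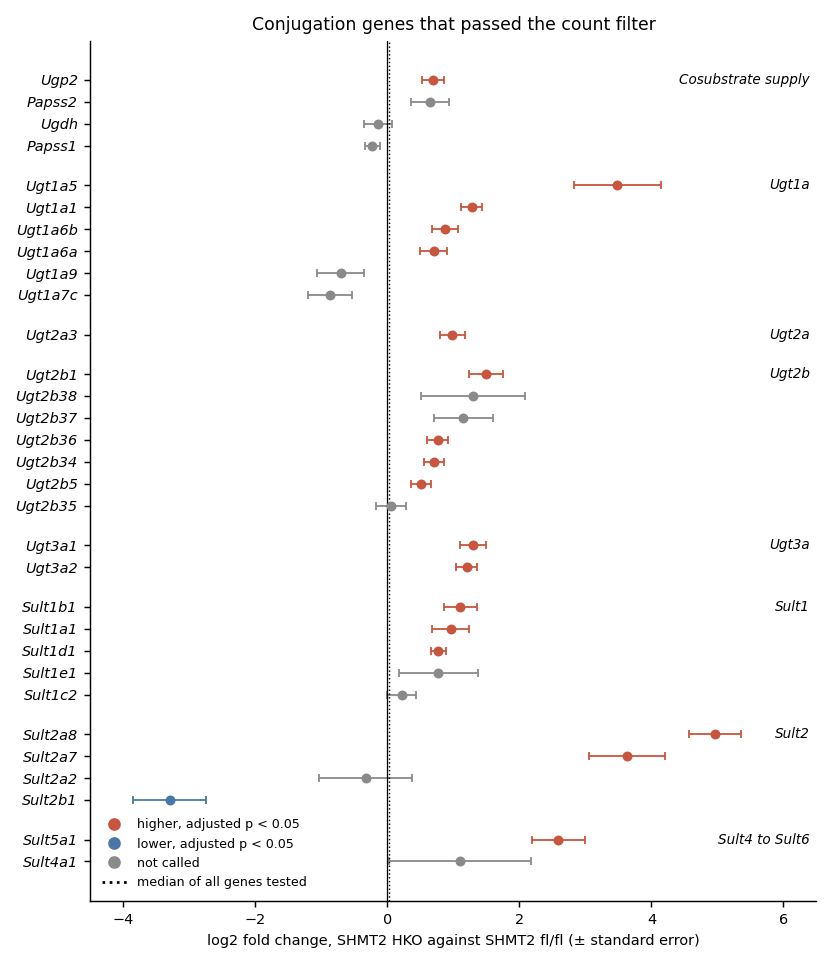
Log2 fold change of SHMT2 HKO against SHMT2 fl/fl livers (horizontal axis, with the standard error as bars) for the 31 members that passed the count filter, by subfamily, with the median of all genes tested as a dotted line. Sult2a8 lies farthest to the right at 4.96 and Sult2b1 farthest to the left at -3.30, and 18 members are marked higher.

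Sequence upstream of the start of transcription is shown for 3 sets of members whose differences are described below: Sult2a8, which changed most, 3 genes of the Ugt1a locus that did not move alike, and 3 Ugt2b genes with similar starts. The sequences are from RefSeq on GRCm38.p6, 5′ to 3′ on the strand of the gene, and end at the base before the start. Capitals mark 4 short motifs that were searched on both strands: AGGTCA (an element bound by nuclear receptors), GCGTG (the core of the AhR element), TTCNNNGAA (the STAT element) and GTTAAT (one arm of the HNF1 element, which reads ATTAAC on the other strand). No overlap between different motifs was found in the members' promoters. A match describes the letters only.
Sult2a8, upstream start (chr7:14446588-14446837, minus strand): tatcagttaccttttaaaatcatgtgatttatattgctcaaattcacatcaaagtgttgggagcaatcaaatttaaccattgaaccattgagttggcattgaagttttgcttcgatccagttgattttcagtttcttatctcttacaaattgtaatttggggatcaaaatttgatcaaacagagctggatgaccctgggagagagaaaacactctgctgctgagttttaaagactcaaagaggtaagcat
Sult2a8, downstream start (chr7:14438552-14438801, minus strand): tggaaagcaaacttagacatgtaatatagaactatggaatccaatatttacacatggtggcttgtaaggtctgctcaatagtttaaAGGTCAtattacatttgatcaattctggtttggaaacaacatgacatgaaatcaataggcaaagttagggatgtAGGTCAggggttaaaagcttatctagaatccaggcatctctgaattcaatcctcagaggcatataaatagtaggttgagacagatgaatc
Ugt1a1 (chr1:88211839-88211958, plus strand): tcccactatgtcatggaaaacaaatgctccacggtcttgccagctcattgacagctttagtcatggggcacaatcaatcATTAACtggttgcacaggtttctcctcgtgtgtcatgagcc
Ugt1a5 (chr1:88165892-88166011, plus strand): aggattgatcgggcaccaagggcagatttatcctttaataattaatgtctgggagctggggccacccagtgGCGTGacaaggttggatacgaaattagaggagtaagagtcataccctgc
Ugt1a9 (chr1:88070659-88070778, plus strand): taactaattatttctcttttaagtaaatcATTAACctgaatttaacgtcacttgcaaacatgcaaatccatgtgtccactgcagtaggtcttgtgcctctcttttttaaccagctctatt
Ugt2b36 (chr5:87092556-87092675, minus strand): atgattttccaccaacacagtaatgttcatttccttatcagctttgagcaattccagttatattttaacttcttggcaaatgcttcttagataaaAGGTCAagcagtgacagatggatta
Ugt2b5 (chr5:87140341-87140460, minus strand): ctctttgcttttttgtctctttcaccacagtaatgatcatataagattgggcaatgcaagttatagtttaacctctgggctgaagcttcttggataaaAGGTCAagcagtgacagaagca
Ugt2b38 (chr5:87424204-87424323, minus strand): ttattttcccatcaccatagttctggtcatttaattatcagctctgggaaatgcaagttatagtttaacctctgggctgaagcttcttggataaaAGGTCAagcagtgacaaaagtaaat

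The upstream Sult2a8 start had none of the motifs in its 250 bases, and the downstream start had AGGTCA at -164 and -90. Ugt1a1 and Ugt1a9 both had the HNF1 letters, at -41 and -91, although their log2 fold changes were 1.28 and -0.71. Ugt2b36, Ugt2b5 and Ugt2b38 had AGGTCA at -25, -22 and -25, and Ugt2b37 had it at -39. Ugt2b35 had it farther away, at -215, and Ugt2b1 and Ugt2b34, which were called higher, did not have it in this window. The 120 bases of Ugt2b5 were 69.2% identical to those of Ugt2b36 and 75.4% to those of Ugt2b38. RefSeq held 40 promoters (250 bases before to 50 after the start) of 34 members. GTTAAT was in 11 of these 40 promoters (27.5%) and in 7.1% of all 32851 promoters. AGGTCA was in 11 (27.5%, against 16.3% of all), GCGTG in 10 (25%, against 32.4%) and TTCNNNGAA in 2 (5.0%, against 8.3%). Of the 18 promoters of members called higher, 6 held GTTAAT (33.3%) and 4 held AGGTCA (22.2%). These 18 do not match the 18 members called higher. Sult2a8, Sult1b1 and Ugp2 had 2 promoters each, and Ugt1a6b, Ugt3a2 and Sult2a7 had none.

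Among the genes of cosubstrate supply, Ugp2 was higher and the other 3 were not called. Ugp2 was measured at 226, 191 and 195 CPM in SHMT2 fl/fl and 263, 379 and 345 CPM in SHMT2 HKO mice. The groups did not overlap, and the log2 fold change was 0.69 (SE 0.17, adjusted p = 0.0192). This call was lost without SHMT2 fl/fl mouse 2 (adjusted p = 0.0827), without SHMT2 fl/fl mouse 3 (0.085) and without SHMT2 HKO mouse 2 (0.0622). Ugdh, the next enzyme of the route to UDP-glucuronic acid, was measured at 229, 153 and 189 CPM and at 135, 214 and 170 CPM. Its groups overlapped widely (log2 fold change -0.14, SE 0.21, adjusted p = 0.648). Papss2, the main PAPS synthase of liver, stood at 85.0, 132 and 111 CPM against 112, 247 and 150 CPM, with the highest value in SHMT2 HKO mouse 2 and overlapping groups (0.64, SE 0.29, adjusted p = 0.137). Papss2 was called higher without SHMT2 HKO mouse 1 (0.87, adjusted p = 0.0271) and stood at 0.27 without SHMT2 HKO mouse 2. Papss1 was measured at 24, 22.3 and 22.5 CPM against 18.5, 20 and 20.1 CPM. Its SHMT2 HKO values were all below the SHMT2 fl/fl values, but the difference was small and did not pass the test (-0.23, SE 0.11, adjusted p = 0.152).

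The 9 members of the Ugt1a locus lie on chromosome 1 (88055388 to 88220002 on GRCm38), each with a first exon of its own spliced to the same last exons. They share 1311 bases of exon, and the part of each gene's exons that no other gene overlaps was 17.3% (Ugt1a1) to 49.7%. Reads over the shared exons cannot be assigned to 1 of these genes, and the study's methods state only that unique gene hits were taken, so the values are uncertain as single-gene levels. Of them, 6 passed the filter, and the genes with their first exons in the downstream part of the locus were higher while 2 upstream ones had negative fold changes (Ugt1a6a turned to -0.02 with ERCC scaling). Ugt1a10, with the most upstream first exon, did not pass the filter. It had 5, 2 and 2 counts in SHMT2 fl/fl and 6, 9 and 3 in SHMT2 HKO mice, and its groups overlapped in CPM. The totals of 9 and 18 counts, scaled to the TMM-corrected library sizes, gave a ratio of 3.09 (exact 95% interval 1.32 to 7.8). This interval covers counting error only, not the spread between mice. Ugt1a1, the bilirubin glucuronosyltransferase, was measured at 44.6, 62.7 and 55.8 CPM in SHMT2 fl/fl and at 115, 149 and 131 CPM in SHMT2 HKO mice. It was higher in every SHMT2 HKO mouse, with a log2 fold change of 1.28 (SE 0.16, adjusted p = 0.00171), and it was called under all alternatives but ERCC scaling.

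Ugt1a5 had the largest difference of the locus. Its level was 2.84, 2.97 and 2.04 CPM in SHMT2 fl/fl and 8.32, 55.8 and 23.3 CPM in SHMT2 HKO mice. The SHMT2 HKO mice spread widely, with mouse 2 highest, but none came near the SHMT2 fl/fl range (log2 fold change 3.48, SE 0.66, adjusted p = 0.00955). The adjusted p was 0.0538 without SHMT2 fl/fl mouse 2 and 0.0525 without SHMT2 fl/fl mouse 3. Ugt1a6a and Ugt1a6b, which glucuronidate simple phenols, are 97.2% identical as proteins (94.5% before the shared end), so how reads were split between them is uncertain. Ugt1a6b stood at 19.2, 17.2 and 21.2 CPM against 24.8, 42.2 and 38.5 CPM (0.87, SE 0.20, adjusted p = 0.0145). Ugt1a6a stood at 14.3, 11.9 and 12.3 CPM against 15.3, 27.3 and 20.1 CPM (0.70, SE 0.21, adjusted p = 0.0385). In both genes the groups did not overlap and SHMT2 HKO mouse 1 was lowest of its group. Ugt1a6b was not called without SHMT2 fl/fl mouse 1 (adjusted p = 0.0563), SHMT2 fl/fl mouse 2 (0.0603) or SHMT2 HKO mouse 2 (0.053). Ugt1a6a was called in 1 of the 6 fits with a mouse left out, that without SHMT2 HKO mouse 1.

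Ugt1a9, a glucuronosyltransferase of phenols and many drugs, went the other way without passing the test. It was measured at 20.8, 23.5 and 18.0 CPM in SHMT2 fl/fl and at 6.15, 12.9 and 19.1 CPM in SHMT2 HKO mice. SHMT2 HKO mice 1 and 2 were below the control range and mouse 3 was inside it (log2 fold change -0.71, SE 0.35, adjusted p = 0.166). Without SHMT2 HKO mouse 3 the gene was called lower (-1.15, adjusted p = 0.0327), and without SHMT2 HKO mouse 1 the fold change was -0.37. Ugt1a9 is 92.8% identical to Ugt1a10. Ugt1a7c was low, at 1.79, 1.13 and 1.51 CPM against 0.722, 0.76 and 0.945 CPM, with no overlap but no call (-0.87, SE 0.33, adjusted p = 0.0827). The ratio of counts on Ugt1a1 to counts on Ugt1a9, which needs no scaling between libraries, was 2.14, 2.67 and 3.1 in SHMT2 fl/fl and 18.8, 11.6 and 6.89 in SHMT2 HKO mice. The ratio of Ugt1a5 to Ugt1a9 was 0.136, 0.127 and 0.113 against 1.35, 4.33 and 1.23. In both ratios the groups were apart, and these pairs were chosen after their values were seen, so no test is given.

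**Figure D2:**
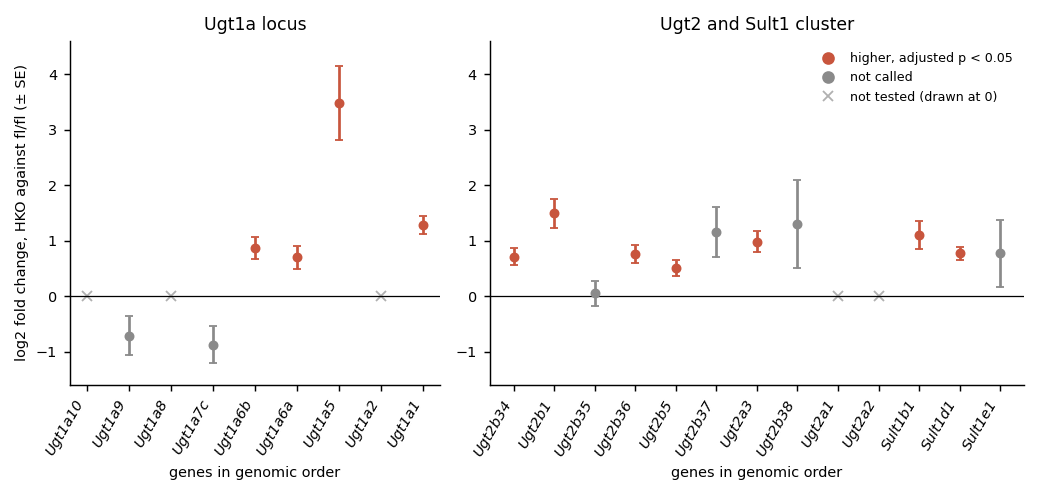
Log2 fold change of SHMT2 HKO against SHMT2 fl/fl livers (vertical axis, with standard error) for the genes of the Ugt1a locus and of the Ugt2 and Sult1 cluster, in genomic order along the horizontal axis. In the Ugt1a locus Ugt1a9 and Ugt1a7c lie below 0 and Ugt1a6b, Ugt1a6a, Ugt1a5 and Ugt1a1 above it, while all tested genes of the other cluster lie at or above 0 with TMM scaling.

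The Ugt2 genes and 3 Sult1 genes sit side by side on chromosome 5 (86889767 to 87591594 on GRCm38). Of 13 genes there, 11 passed the filter. By edgeR 7 were higher and none was lower, where 12.5% and 16.5% of all genes tested were. The counts were 8 higher and 0 lower both at an unadjusted p of 0.05 and by DESeq2, and 7 and 0 by limma-voom. Without TMM 2 were higher, and with ERCC scaling none was called. Over the 7 Ugt2b genes, which act on steroids, bile acids and drugs, 4 were higher and 3 were not called (median log2 fold change 0.76 with TMM and 0.03 with ERCC scaling). Ugt2b5 was the most abundant Ugt member in SHMT2 fl/fl livers, both in CPM and, at 180 CPM per kb of unshared exon, per length. It was measured at 379, 302 and 324 CPM against 458, 502 and 468 CPM. The groups did not overlap, but the difference was the smallest of the called members (log2 fold change 0.51, SE 0.15, adjusted p = 0.0336), and it turned to -0.22 with ERCC scaling. The call of Ugt2b5 was lost without SHMT2 fl/fl mouse 1 (adjusted p = 0.0504), mouse 2 (0.148) or mouse 3 (0.133) and without SHMT2 HKO mouse 2 (0.0901).

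Ugt2b36 and Ugt2b34 had the next highest Ugt levels in CPM. Ugt2b36 stood at 319, 272 and 294 CPM against 447, 584 and 463 CPM (log2 fold change 0.76, SE 0.16, adjusted p = 0.0107). Ugt2b34 stood at 267, 225 and 236 CPM against 342, 410 and 436 CPM (0.71, SE 0.15, adjusted p = 0.0114). Every SHMT2 HKO mouse was above every SHMT2 fl/fl mouse in both genes. Without SHMT2 fl/fl mouse 2 or mouse 3 the adjusted p was 0.0579 and 0.0551 for Ugt2b36, and 0.0608 and 0.0603 for Ugt2b34.

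Ugt2b1 had the largest difference of the called Ugt2b genes. It was measured at 139, 88.6 and 118 CPM in SHMT2 fl/fl and at 442, 282 and 246 CPM in SHMT2 HKO mice. The lowest SHMT2 HKO value was well above the highest SHMT2 fl/fl value (log2 fold change 1.49, SE 0.26, adjusted p = 0.00491), and the call was lost only with ERCC scaling among the alternatives. Ugt2b35, its neighbour, was not called, at 122, 64.3 and 78.9 CPM against 99.7, 77.7 and 97.3 CPM (0.05, SE 0.23, adjusted p = 0.891). The ratio of counts on Ugt2b1 to counts on Ugt2b35 was 1.14, 1.38 and 1.49 against 4.44, 3.63 and 2.53, a pair also chosen after its values were seen. Ugt2b37 and Ugt2b38 were low and not called, with 1.17 to 2.15 CPM and 2.03 to 4.28 CPM in SHMT2 fl/fl mice. Ugt2b38 reached 17.1 CPM in SHMT2 HKO mouse 1 but 1.57 and 3.94 CPM in mice 2 and 3, and its log2 fold change went from 1.30 to -0.13 without SHMT2 HKO mouse 1. Ugt2b38 and Ugt2b37 are 96.4% and 92.1% identical to the abundant Ugt2b5 as proteins, so their own levels are uncertain.

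Ugt2a3, which conjugates bile acids, was the only gene of the Ugt2a subfamily with counts. Ugt2a1 and Ugt2a2 overlap each other and Gm43638 in exons, which left 1.2% and 5.5% of their exons unshared. Their 0 counts therefore do not tell whether they were expressed. Ugt2a3 was measured at 93.3, 102 and 97.9 CPM in SHMT2 fl/fl and at 216, 225 and 138 CPM in SHMT2 HKO mice. The groups did not overlap, with SHMT2 HKO mouse 3 nearest to the controls (log2 fold change 0.98, SE 0.19, adjusted p = 0.00758). Both Ugt3a genes, whose human counterparts use other UDP sugars in place of UDP-glucuronic acid, were higher. Ugt3a2 stood at 141, 129 and 147 CPM against 336, 361 and 258 CPM (1.20, SE 0.16, adjusted p = 0.00212). Ugt3a1 was less abundant, at 15.1, 16.3 and 19.6 CPM against 35.4, 54.4 and 36.0 CPM (1.30, SE 0.20, adjusted p = 0.00304). Neither Ugt3a gene had overlapping groups. Their coding sequences are 93.3% identical (87.2% as proteins), so how reads were split between them is uncertain. Ugt2a3, Ugt3a1 and Ugt3a2 were called in all 6 fits with a mouse left out and lost their calls with ERCC scaling, where their fold changes were all above 0.

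**Figure D3:**
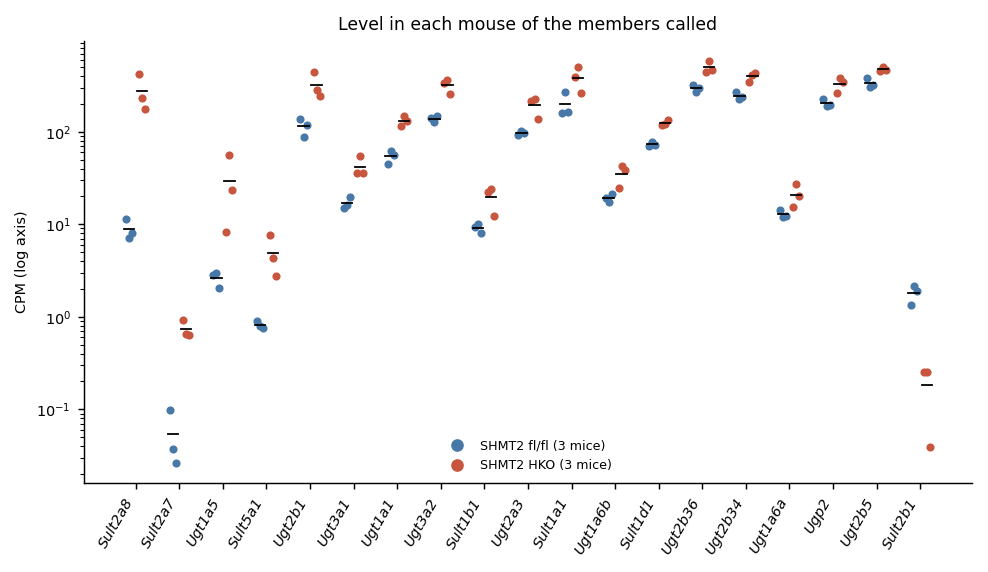
Level in CPM (log axis) of the 19 members called, in each SHMT2 fl/fl mouse (blue) and SHMT2 HKO mouse (red), with group means as bars, ordered by fold change. Sult1a1 is the one gene whose groups overlap, and Sult2a8 moves from 7.11 to 11.5 CPM up to 174 to 425 CPM.

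The largest difference of all members was in Sult2a8, a hydroxysteroid sulfotransferase of mouse liver that acts on bile acids. Sult2a8 (ENSMUSG00000030378, chromosome 7, 14410686 to 14446769) had 470, 189 and 309 counts in SHMT2 fl/fl and 10025, 4600 and 4415 counts in SHMT2 HKO mice, or 11.5, 7.11 and 8.06 CPM against 425, 233 and 174 CPM. The groups lay far apart, and SHMT2 HKO mouse 1 was the highest. The fitted ratio was 31.1-fold (log2 fold change 4.96, SE 0.39, adjusted p = 0.000659). In all 16 alternatives the gene was called higher, with log2 fold changes from 4.03 to 5.19. Per length of exon its level went from 2.71 to 84.5 CPM per kb, beside 137 and 266 CPM per kb for Sult1a1, the most abundant Sult gene.

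Its neighbour Sult2a7 had more counts in SHMT2 HKO mice as well but was close to the floor. Sult2a7 had 4, 1 and 1 counts in SHMT2 fl/fl and 22, 13 and 16 counts in SHMT2 HKO mice. Over the groups, 6 and 51 counts, scaled to the TMM-corrected library sizes, gave a ratio of 13.1 (exact 95% interval 5.63 to 37.4, for counting error only). The fitted log2 fold change was 3.63 (SE 0.57, adjusted p = 0.00352). Sult2a7 passed the filter through the SHMT2 HKO samples alone, so it had to differ, and it was not tested when 10 counts were asked of every sample. As proteins Sult2a7 and Sult2a8 were 48.7% identical. The other Sult2a genes were scarce: Sult2a2 was at 0.209 to 0.828 CPM in SHMT2 fl/fl and 0.127 to 0.748 CPM in SHMT2 HKO mice (adjusted p = 0.751). Sult2a1, the classical hydroxysteroid sulfotransferase, had 16, 28 and 1 counts against 2, 0 and 2 and was not tested, and it shares 90.2% and 93.3% of its protein with Sult2a3 and Sult2a5, which had at most 2 counts in any sample.

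Sult2b1, the cholesterol sulfotransferase, was the one member called lower. Sult2b1 had 55, 57 and 72 counts in SHMT2 fl/fl and 6, 5 and 1 counts in SHMT2 HKO mice. The groups did not overlap. The totals of 184 and 12 counts, scaled to the TMM-corrected library sizes, gave a ratio of 0.101 (exact 95% interval 0.051 to 0.18, for counting error only). The fitted log2 fold change was -3.30 (SE 0.55, adjusted p = 0.00444). Sult2a1 and Sult6b1 did not pass the filter but also had fewer counts. Their ratios of group totals, scaled the same way, were 0.137 (exact 95% interval 0.0358 to 0.376) and 0.154 (0.0301 to 0.496). The Sult2a1 groups overlapped. Sult2b1 passed the filter through the SHMT2 fl/fl samples alone, so it had to differ, and it was not tested when 10 counts were asked of every sample. It overlaps Lmtk3 on the other strand by 243 bases of exon and Gm31597 by 78 bases, and the counting is not stated to use strand. All 7 cholangiocyte markers fell as well, with a summed level of 958 to 1190 CPM in SHMT2 fl/fl and 128 to 246 CPM in SHMT2 HKO mice, and of 7 stellate cell and myofibroblast markers 3 were lower (summed level 1197 to 1279 CPM against 315 to 804 CPM) and 1, Reln, was higher (0.97, SE 0.20, adjusted p = 0.0105). The part of these cells in the change of Sult2b1 was not tested.

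Of the 5 Sult1 genes, 3 were higher (60%, against 12.5% of all genes tested) and 2 were not called. Sult1a1, the phenol sulfotransferase, was measured at 160, 271 and 165 CPM in SHMT2 fl/fl and at 392, 499 and 264 CPM in SHMT2 HKO mice. SHMT2 fl/fl mouse 2 was just above SHMT2 HKO mouse 3, so the groups overlapped (log2 fold change 0.96, SE 0.28, adjusted p = 0.0368). The adjusted p was 0.13, 0.133, 0.0532 and 0.117 without SHMT2 fl/fl mouse 1, SHMT2 fl/fl mouse 3, SHMT2 HKO mouse 1 and SHMT2 HKO mouse 2. Sult1d1, which sulfates catecholamines, was the most even of the 3 within groups, at 71.0, 76.6 and 71.9 CPM against 119, 122 and 134 CPM (0.77, SE 0.11, adjusted p = 0.00261). The call of Sult1d1 held in all 6 fits with a mouse left out and was lost without TMM (adjusted p = 0.0978) and with ERCC scaling (0.881). Sult1b1, which sulfates thyroid hormones, stood at 9.27, 10.1 and 7.99 CPM against 22.5, 24 and 12.4 CPM, with no overlap (1.10, SE 0.25, adjusted p = 0.0136). It was not called without SHMT2 fl/fl mouse 1 (adjusted p = 0.0509), SHMT2 fl/fl mouse 3 (0.0613) or SHMT2 HKO mouse 2 (0.0504). Sult1e1, the estrogen sulfotransferase, was low, at 1.44, 0.79 and 0.835 CPM against 2.33, 2.53 and 0.433 CPM, with SHMT2 HKO mouse 3 below all controls (0.77, SE 0.60, adjusted p = 0.374), and it was called higher without that mouse (1.21, adjusted p = 0.0424). Sult1c2 was at 3.09 to 3.84 CPM and 3.27 to 4.25 CPM and was not called (adjusted p = 0.498).

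The remaining Sult genes were scarce. Sult5a1 was higher, at 0.905, 0.79 and 0.757 CPM in SHMT2 fl/fl and 7.72, 4.30 and 2.79 CPM in SHMT2 HKO mice. The groups did not overlap, SHMT2 HKO mouse 1 was highest, and the gene was called in all 16 alternatives (log2 fold change 2.59, SE 0.40, adjusted p = 0.00325). Sult4a1, a form known mainly from brain, was at 1.03, 1.62 and 0.861 CPM against 6.71, 0.354 and 0.354 CPM. Its fold change of 1.10 rested on SHMT2 HKO mouse 1 (SE 1.07, adjusted p = 0.487) and became -1.69 without that mouse (adjusted p = 0.0255). Sult6b1 had 9, 3 and 18 counts against 1, 2 and 0 and was not tested, though the 2 groups did not overlap. Sult3a1 had 1, 6 and 2 counts against 2, 7 and 0, in groups that overlapped, and Sult3a2 had 1 count in all.

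Sult2a8 became a major part of the Sult counts. It took 4.39%, 1.9% and 3.08% of all counts on Sult genes in SHMT2 fl/fl and 43.4%, 26.1% and 29.3% in SHMT2 HKO mice. Sult1a1, which led in every mouse but SHMT2 HKO mouse 1, took 65.5% ± 5.85 (SD, n = 3) and 46.8% ± 8.28. These shares need no scaling between libraries, and the exact 95% intervals of the highest SHMT2 fl/fl and lowest SHMT2 HKO share of Sult2a8 were 4.01% to 4.8% and 25.5% to 26.8%. The summed level of all Sult members was 299 ± 65.5 CPM in SHMT2 fl/fl and 822 ± 203 CPM in SHMT2 HKO mice, and without Sult2a8 it was 291 ± 67.0 and 544 ± 120 CPM. Among Ugt genes, Ugt2b5 led in SHMT2 fl/fl mice with 23.1% ± 0.653 and took 18.5% ± 0.993 in SHMT2 HKO mice, where Ugt2b36 had a share of the same size (19.3% ± 1.77, against 20.4% ± 0.242 in SHMT2 fl/fl mice). Ugt2b1 took 7.9% ± 1.07 and 12.6% ± 4.05 and Ugt1a9 1.45% ± 0.285 and 0.50% ± 0.281, with no overlap of the groups in either gene. The summed Ugt level was 1446 ± 133 CPM in SHMT2 fl/fl and 2580 ± 201 CPM in SHMT2 HKO mice.

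**Figure D4:**
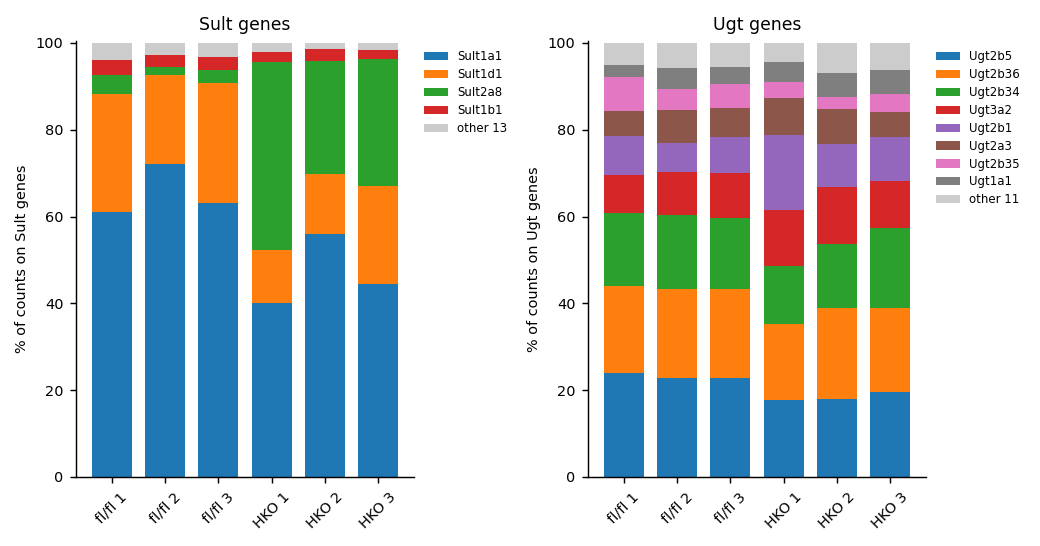
Share of the counts on 17 Sult genes (left) and 19 Ugt genes (right) that each gene took in each liver, in percent on the vertical axis, with 1 bar for each mouse. Sult2a8 takes 1.9% to 4.39% in SHMT2 fl/fl and 26.1% to 43.4% in SHMT2 HKO livers, while the Ugt bars keep Ugt2b5, Ugt2b36 and Ugt2b34 as large parts in every mouse.

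Genes that supply or recycle the cosubstrates, outside the members, were listed as well. Of 15 such genes, 7 were higher (46.7%, against 12.5% of all genes tested by edgeR) and none was lower (against 16.5%). These counts were the same by edgeR with or without adjustment, by DESeq2 and by limma-voom (median log2 fold change 0.31). Without TMM 2 were higher and 3 lower, and with ERCC scaling none was called. Slc13a4, a sulfate transporter, was at 0.269, 0.113 and 0.261 CPM against 1.27, 1.47 and 0.472 CPM, above the controls in every SHMT2 HKO mouse but low (2.25, SE 0.56, adjusted p = 0.0193). It was called in 2 of the 6 fits with a mouse left out, those without SHMT2 HKO mouse 1 or mouse 3, and had adjusted p of 0.0591 to 0.0703 in the other 4. Without SHMT2 fl/fl mouse 1 only Bpnt1 and Rgn of the 7 were called, as Suox (adjusted p = 0.102), Slc26a1 (0.132), Gulo (0.062) and Gys2 (0.0637) lost their calls too. Rgn, a lactonase of the route from glucuronate to ascorbate, was abundant, at 396, 386 and 384 CPM against 1471, 1386 and 819 CPM (1.66, SE 0.23, adjusted p = 0.00247). Bpnt1, which clears the PAP left by sulfation, rose by 0.76 on the log2 scale. Of 8 transporters of conjugates and organic anions, 4 were higher (50%, against 12.5% of all genes tested). Abcc4, an exporter to blood, was lower at -1.88 (12.5% of the list, against 16.5%). Slco1a1, an uptake carrier of organic anions, had 19.1, 9.9 and 6.16 CPM against 281, 92.2 and 140 CPM (3.87, SE 0.57, adjusted p = 0.00395), with all SHMT2 HKO mice far above the controls.

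Of 19 transcription factors known to act on conjugation genes, 8 were higher (42.1%, against 12.5% of all genes tested) and none was lower by edgeR, with a median of 0.41. The counts were 11 and 0 without adjustment, 10 and 0 by DESeq2, 9 and 0 by limma-voom, and 1 and 0 with ERCC scaling. Nr1i3, the xenobiotic receptor CAR, was at 33.2, 52.7 and 38.2 CPM in SHMT2 fl/fl and 159, 174 and 88.9 CPM in SHMT2 HKO mice (1.77, SE 0.28, adjusted p = 0.00369). Onecut1, a hepatocyte factor, was at 6.83, 7.79 and 7.15 CPM against 36.8, 24.8 and 54.7 CPM (2.42, SE 0.27, adjusted p = 0.00127). Both had groups that did not overlap. Of 8 common targets of CAR and PXR outside the members, 1 was higher (Alas1, 0.95), 2 were lower (Cyp2c55, -1.88, and Gsta2, -1.17) and the median was -0.95. Of 4 AhR targets tested, Cyp1a2 was higher at 1.71 and Cyp1b1 lower at -1.88. The shares higher and lower were 12.5% and 25% of the CAR and PXR targets and 25% and 25% of the AhR targets. Over all genes tested they were 12.5% and 16.5%, so with lists this short these counts were near those shares. Without SHMT2 fl/fl mouse 2 or mouse 3 none of Cyp2c55 (adjusted p = 0.11 and 0.0943), Gsta2 (0.132 and 0.109) and Cyp1b1 (0.103 and 0.0759) was called. Cyp2c55 and Gsta2 were also lost without SHMT2 HKO mouse 3 (0.0905 and 0.129), Gsta2 and Cyp1b1 without SHMT2 fl/fl mouse 1 (0.0536 and 0.095), and Cyp1b1 without SHMT2 HKO mouse 2 (0.0925). Of 5 PPARA targets Vnn1 was higher at 1.13 (20%, against 12.5% of all genes tested). Of 6 NRF2 targets 0 were called by edgeR, also at an unadjusted p of 0.05, and 0 by DESeq2 and limma-voom.

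Sult and Ugt genes are among those whose level differs between male and female mouse liver, so both kinds of sex-biased gene were listed. Of 11 male-biased genes tested, 7 were higher (63.6%, against 12.5% of all genes tested) and none was lower by edgeR, with a median of 1.78. The counts were 7 and 0 without adjustment, 6 and 0 by DESeq2 and by limma-voom, and 5 and 0 with ERCC scaling. Among those higher was Elovl3, a fatty acid elongase (3.26). Hsd3b5, a steroid dehydrogenase, was at 0.294, 0.527 and 0.391 CPM against 165, 2.94 and 5.63 CPM, so that SHMT2 HKO mouse 1 set most of its log2 fold change of 7.19 (SE 1.9, adjusted p = 0.032). Without that mouse it was 3.44 (adjusted p = 0.000798), and without SHMT2 fl/fl mouse 1, 2 or 3 the adjusted p was 0.0968, 0.116 and 0.103. Of 11 female-biased genes tested, Cyp2a4 was lower at -3.77 (9.09%, against 16.5% of all genes tested) and the other 10 were not called.

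Markers of liver cell types moved between the genotypes beside the members. Of 8 hepatocyte markers 2 were higher (25%), Cyp2e1 and Apoa2, and the median log2 fold change of the 8 was 0.80, beside 0.77 for the members. Of 6 T and B cell markers 2 were lower (33.3%), with a summed level of 13.3 to 17.2 CPM in SHMT2 fl/fl and 5.04 to 6.92 CPM in SHMT2 HKO mice. Macrophage markers had 1 higher and 2 lower of 6 (16.7% and 33.3%), and endothelial markers 2 higher of 5 (40%). Over all genes tested 12.5% were higher and 16.5% were lower, and with 6 genes the macrophage counts were near those shares. No marker was at 0 in all mice of a group. The part of the cell composition in the members' differences was not tested.

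**Figure D5:**
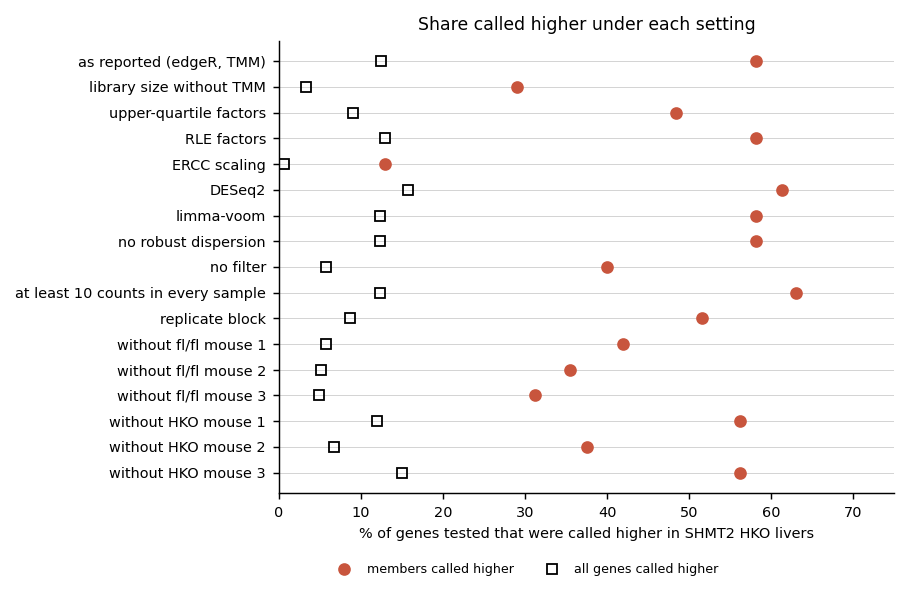
Percent of genes tested that were called higher in SHMT2 HKO livers (horizontal axis), for the members (red) and for all genes (open squares), as reported and under each of 16 alternatives. The members range from 12.9% with ERCC scaling to 63.0% with at least 10 counts in every sample, and all genes from 0.665% to 15.8%.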

How the data were processed

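RNA-seq counts of 6 liver samples, 3 SHMT2 fl/fl and 3 SHMT2 HKO, were analysed. The values deposited by the authors are counts of reads per gene, without normalization. Per the labels and the study's methods, total RNA was extracted with a Qiagen kit, libraries were made with NEBNext Ultra, and reads were trimmed, aligned and counted. The submitters' processing notes name Trimmomatic 0.36, STAR 2.5.2b, featureCounts of Subread 1.5.2 and the builds GRCm38 and mm10. The methods add that unique gene hits were taken. Strand and overlap settings are not given in the sources used here. Samples were grouped by their titles.

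Of the listed entries, 92 were ERCC RNAs and stayed out of library sizes and tests. Symbols, coordinates, exon overlaps and translated coding sequences came from GENCODE vM21 on GRCm38, in which 259 gene entries with 0.0116% of the counts had no annotation. In R 4.3.3, edgeR 4.0.16 was used to drop low genes (filterByExpr), to scale libraries (TMM) and to run a two-sided quasi-likelihood F test with robust dispersions on 16089 genes, with p-values adjusted by Benjamini-Hochberg. The standard error is the fold change over the root of F. The fit was tested on simulated data. CPM were computed from TMM-scaled libraries. Close paralogs are members with at least 90% protein identity. Ratios of group totals and their intervals were scaled to the TMM-corrected library sizes. Intervals and the floor of 3 counts cover counting error only. The edgeR p-values test the group difference against the spread between these mice, with dispersions moderated across genes.

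The members, lists, tests and alternatives were chosen with earlier results of these data known. Full values are given for Shmt2, the 4 cosubstrate genes, every member called and the most abundant member of each subfamily, and of other lists up to 5 called genes with the largest change are named. The alternatives were library size without TMM, upper-quartile, RLE and ERCC scaling, DESeq2 1.42.0, limma-voom (limma 3.58.1), no robust dispersion, no filter, at least 10 counts in every sample, a block for the replicate number, and fits with 1 mouse left out.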

Additional observations from a re-analysis of the deposited data

How the results depend on the processing

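Of the values of single members under 16 alternatives, 404 kept their direction and their side of the threshold, 57 lost the call, 8 gained one and 22 changed sign. Members called higher numbered 18 as reported, 9 without TMM and 4 with ERCC scaling, and 10 to 18 with a mouse left out (11 without SHMT2 fl/fl mouse 2 and 10 without SHMT2 fl/fl mouse 3). Members called lower numbered 1 as reported, 3 without TMM (Papss1, Ugt1a7c and Sult2b1) and 1 to 2 with a mouse left out. Calls over all genes numbered 4663 as reported, 2866 with ERCC scaling (107 higher and 2759 lower) and 2426 to 5597 with a mouse left out, the lowest without SHMT2 fl/fl mouse 3. Signs changed without TMM for Ugt2b35 (-0.38) and Sult1c2 (-0.20), and with upper-quartile factors for Ugt2b35 (-0.04). With ERCC scaling they changed for Ugt2b35 (-0.68), Sult1c2 (-0.47), Sult1e1 (-0.31), Ugt2b5 (-0.22), Papss2 (-0.08), Sult4a1 (-0.08) and Ugt1a6a (-0.02). Sult4a1 was -0.14 with limma-voom and -0.10 with the replicate block. With a mouse left out, fold changes ran from -0.14 to 0.36 for Ugt2b35, -0.32 to 0.01 for Ugdh, -1.16 to 0.12 for Sult2a2, -0.13 to 1.77 for Ugt2b38 and -1.69 to 1.60 for Sult4a1. The cause was not tested. Whether the replicate numbers pair the mice is not stated in the labels. Deviations of same-numbered samples correlated at -0.0459, 0.0125 and -0.0766, and those of other pairs at -0.0239 to 0.0808. With 3 mice a group these values cannot tell whether mice were paired. The replicate block gave 16 members higher and 1 lower, with Papss2 among those higher (0.58, adjusted p = 0.047). Members under about 1 CPM rest on few counts, and 3 mice a group limit every call.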
